A study of Arabidopsis thaliana with 12 samples.

Results

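The genes described here are the 7 membrane-bound fatty acid desaturases FAD2 (AT3G12120), FAD3 (AT2G29980), FAD4 (AT4G27030), FAD5 (AT3G15850), FAD6 (AT4G30950), FAD7 (AT3G11170) and FAD8 (AT5G05580) of Arabidopsis thaliana. They were chosen by name from the 28642 genes of the deposited table. Their transcripts were counted in whole wild-type seedlings, grown in liquid MS medium with sucrose and treated at day 14 for 90 min. The treated groups received C18:0 CoA (stearoyl-CoA, saturated), C18:1 CoA (oleoyl-CoA, of the same chain length with a double bond) or C16:0 CoA (palmitoyl-CoA, saturated and shorter), each at 0.1% with 0.01% of the surfactant Pluronic F68. Control seedlings received 0.01% Pluronic F68 and no acyl-CoA. There were 3 replicates in each of the 4 groups, and every replicate pooled 80 plants, so that the libraries average over plants and organs.

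Desaturases introduce double bonds into fatty acids that are already part of membrane lipids. In the endoplasmic reticulum FAD2 turns oleate into linoleate and FAD3 turns linoleate into linolenate, mainly on phosphatidylcholine. In the plastid FAD6 carries out the step of FAD2, and FAD7 and FAD8 carry out the step of FAD3. FAD5 acts on palmitate of the galactolipid MGDG, and FAD4 places a trans double bond in palmitate of phosphatidylglycerol. The enzymes of the endoplasmic reticulum draw electrons from cytochrome b5 and those of the plastid from ferredoxin, and the trienoic fatty acids they make are the starting material of jasmonate. The fatty acids supplied here as CoA thioesters are saturated forms and the monounsaturated precursor of this pathway.

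The 12 libraries held 348140 to 6126277 exon reads, a 17.6-fold range. The 3 libraries of lowest depth were replicate 2 of C18:0 CoA, replicate 1 of C18:1 CoA and replicate 2 of C16:0 CoA, and the values that lean on them most are also given without them. A count of 3 reads corresponds to 0.476 CPM (per-million counts of exon reads, on TMM-scaled totals) in the deepest library and to 8.85 CPM in the shallowest. All 6 photosynthesis marker genes and all 6 root marker genes were detected in each group, which fits the label of whole seedlings. The summed root markers stood at 1252 to 1710 CPM with C18:0 CoA, 1369 to 1769 CPM with C18:1 CoA and 994 to 1330 CPM with C16:0 CoA, against 1431 to 1882 CPM in the control. Most of this sum is PYK10, which averaged 1389 CPM with C18:1 CoA and 1468 CPM in the control. Taken gene by gene, 5 of the 6 root markers had negative log2 fold changes with C18:0 CoA (median -0.29) and 6 of 6 with C18:1 CoA (median -0.70) and C16:0 CoA (median -0.52). Of these 0, 3 and 2 had an unadjusted p under 0.05 by edgeR, where 1.88%, 1.99% and 4.03% of all genes did. Of the root markers 0 passed the adjusted threshold. In such bulk samples, fewer cells of a type and less RNA per cell cannot be told apart. C18:1 CoA replicate 3 and the 3 C16:0 CoA libraries carry another i7 index than the other 8 libraries, so that C16:0 CoA could not be compared with the control within an index. No lane held both C18:0 CoA and control libraries.

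The first histidine box, a stretch that binds the iron of the active site, was most alike among FAD3, FAD7 and FAD8. The sequences below are coding DNA from RefSeq (TAIR10.1), each with 21 bases on either side of the box, whose codons are in capitals. FAD4 and FAD5 have no box of this form and are not shown.
FAD2: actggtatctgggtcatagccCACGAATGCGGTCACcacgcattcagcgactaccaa
FAD3: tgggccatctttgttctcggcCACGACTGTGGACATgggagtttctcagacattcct
FAD6: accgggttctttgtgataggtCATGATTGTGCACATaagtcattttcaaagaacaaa
FAD7: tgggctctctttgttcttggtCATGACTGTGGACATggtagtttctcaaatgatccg
FAD8: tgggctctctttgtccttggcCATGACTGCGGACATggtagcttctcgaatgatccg

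FAD7 and FAD8 shared 52 of these 57 bases, and FAD3 shared 46 with FAD7 and 43 with FAD8. FAD2 and FAD6, which act one step earlier, shared 32 with each other and between 25 and 33 with FAD3, FAD7 and FAD8. The FAD2 stretch lies at chr3:3861396-3861452 on the minus strand, within the gene's single coding exon. Those of FAD3 (chr2:12783988-12784667, minus), FAD6 (chr4:15058579-15058708, minus), FAD7 (chr3:3500424-3500780, plus) and FAD8 (chr5:1664775-1664925, plus) run across an intron, which is left out above. Over the whole coding sequences FAD7 and FAD8 were identical at 85.3% of aligned bases, FAD3 and FAD7 at 69.1%, FAD3 and FAD8 at 69.6%, and every other pair at 57.4% to 64.3%.

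The likeness of FAD7 and FAD8 bears on how well their reads can be told apart. The libraries were read for 50 cycles from each end, so windows of 50 bases were searched in all annotated transcripts. Of the FAD7 windows 38 of 2040 (1.86%) also occurred in FAD8. Of the FAD8 windows 235 of 1784 (13.2%) also occurred in another gene, 185 of them in PAI1, 38 in FAD7 and 12 in PAI2, whose 3' end overlaps that of FAD8 by 61 bases on the opposite strand. Of the FAD4 windows 137 of 1101 (12.4%) were shared with VPS22, which overlaps its end by 186 bases on the opposite strand. FAD2, FAD3, FAD5 and FAD6 had 0 such windows. Total and unique exon reads were equal in every cell of the table (0 differed), so reads matching several places in the genome are not in these counts. This does not bear on the overlaps of FAD8 with PAI2 and of FAD4 with VPS22, where both genes occupy the same place. No strand setting is named, so reads of PAI2 and VPS22 from the overlaps may be among these counts. The levels of FAD8 and FAD4 are therefore less certain than those of the other members.

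FAD2 was the most abundant member in every library, and FAD4 the least. Per length (RPKM, exon CPM per kilobase), FAD2 averaged 277 ± 29.9 (SD over the 12 libraries), which placed it at the 97.3 percentile of the genes tested. FAD3 followed at 97.2 ± 13.2 RPKM and FAD6 at 86.0 ± 12.9 RPKM. FAD7 averaged 57.5 ± 9.82 RPKM and FAD5 46.3 ± 8.23 RPKM. FAD8, the cold-inducible partner of FAD7, stood far lower at 7.41 ± 2.74 RPKM, and FAD4 at 1.88 ± 1.29 RPKM.

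The upper end of this order was separated in all libraries, and the lower end in the 9 deeper ones. FAD2 exceeded FAD3 in 12 of 12 libraries, by 2.32-fold to 3.56-fold. FAD3 exceeded FAD6 in 10 of 12 libraries (7 of the 9 deeper ones) and FAD7 exceeded FAD5 in 9 of 12 (7 of the 9 deeper ones), so these neighbours changed places and were not separated beyond their spread. FAD6 exceeded FAD7 in 11 of 12 libraries, the exception being the shallow C16:0 CoA replicate 2, and in 9 of the 9 deeper ones, with a median ratio of 1.66. FAD5 exceeded FAD8 in 12 of 12 libraries, by 3.84-fold to 15.7-fold. FAD8 exceeded FAD4 in 12 of 12, and in 9 of the 9 deeper ones. In the 3 shallow libraries FAD8 and FAD4 had 5 and 0, 3 and 1, and 2 and 0 reads, too few to separate them there. The other 6 members had reads in each library, and FAD4 had 0 reads in 2 of them.

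**Figure D1:**
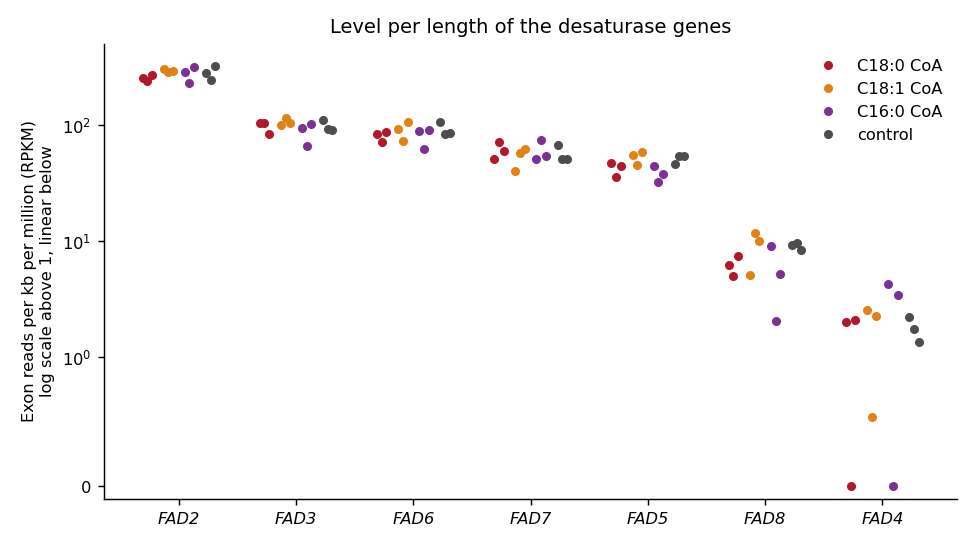
Exon CPM per kilobase (RPKM) of each desaturase gene in the 12 libraries, with genes from the highest to the lowest mean and the groups side by side in colour. The vertical axis is logarithmic above 1 and linear below. FAD2 (mean 277) stands above and FAD8 (7.41) and FAD4 (1.88) stand below the 4 other genes. Among those 4, the points of neighbours in the order overlap.

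For FAD2 and FAD3, the desaturases of the endoplasmic reticulum, no difference from the control was detected with any acyl-CoA. FAD2 (chr3:3860285-3863050) was at 452, 424 and 478 CPM in the 3 C18:0 CoA libraries. The C18:1 CoA libraries held 537, 505 and 513 CPM, and the C16:0 CoA libraries 509, 403 and 555 CPM. In the control FAD2 was at 498, 429 and 566 CPM. Each treated range overlapped the control range, and the lowest value was that of C16:0 CoA replicate 2. The log2 fold changes of FAD2 against the control were -0.14 (95% interval -0.51 to 0.24) with C18:0 CoA, 0.06 (-0.32 to 0.44) with C18:1 CoA and -0.02 (-0.40 to 0.36) with C16:0 CoA.

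FAD3 (chr2:12781591-12785053) was at 159, 160 and 128 CPM with C18:0 CoA. It was at 153, 177 and 161 CPM with C18:1 CoA and at 146, 101 and 158 CPM with C16:0 CoA, against 171, 144 and 139 CPM in the control. The lowest value belonged to C16:0 CoA replicate 2, one of the shallow libraries, and all groups overlapped the control. Its log2 fold changes were -0.03 (-0.45 to 0.39), 0.12 (-0.30 to 0.54) and -0.15 (-0.57 to 0.28) with C18:0, C18:1 and C16:0 CoA, and the last was -0.0047 (-0.34 to 0.33) without the 3 shallow libraries.

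**Figure D2:**
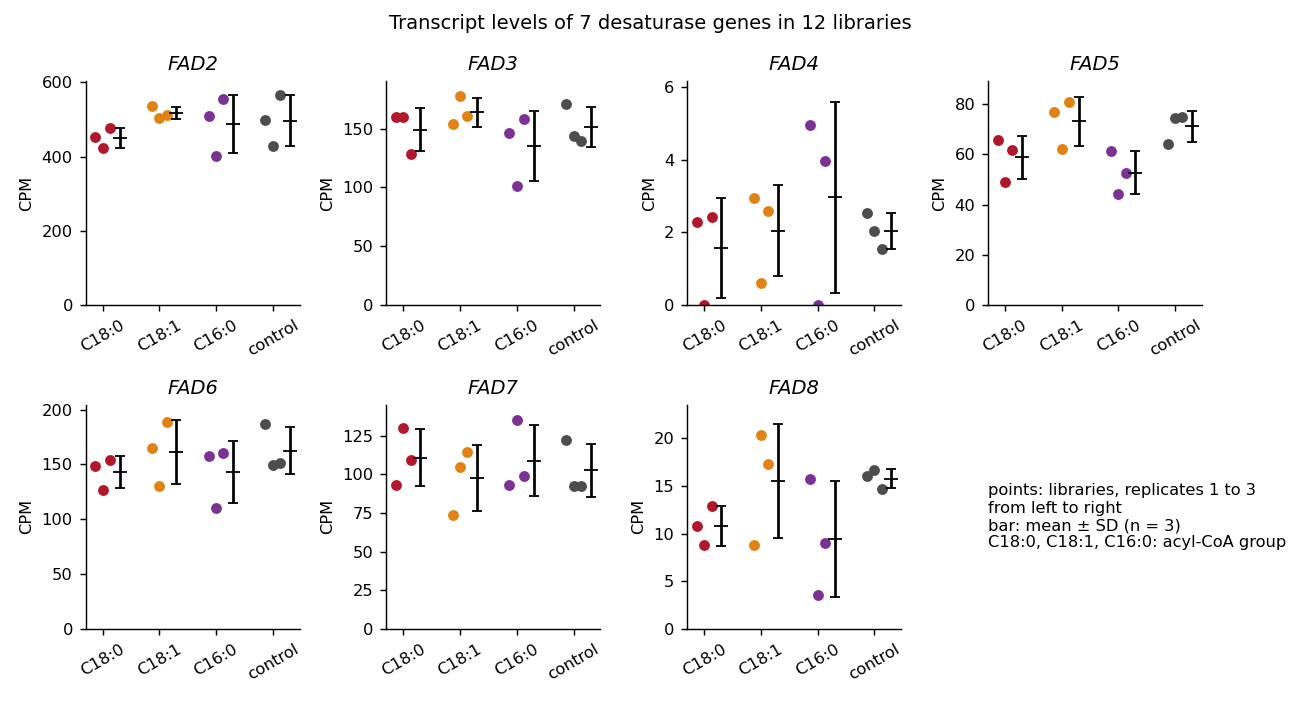
Exon read CPM of each of the 7 genes in every library, from left to right C18:0 CoA, C18:1 CoA, C16:0 CoA and control. Points are replicates 1 to 3 and the bar beside them is the mean ± SD (n = 3). FAD8 with C18:0 CoA (8.77 to 12.9) and FAD5 with C16:0 CoA (44.4 to 61.2) lie below all control points (14.7 to 16.6 and 63.9 to 74.9), and the other treated groups overlap the control.

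In the plastid pathway the FAD6 and FAD7 levels of each treated group overlapped those of the control. FAD6 (chr4:15056975-15059794), which makes the dienoic fatty acids there, was at 148, 126 and 154 CPM with C18:0 CoA, 165, 130 and 188 CPM with C18:1 CoA and 158, 110 and 161 CPM with C16:0 CoA. The control libraries held 187, 149 and 151 CPM. In each treated group replicate 2 was the lowest, and no group stood apart from the control. The log2 fold changes of FAD6 were -0.18 (-0.62 to 0.26), -0.02 (-0.46 to 0.42) and -0.17 (-0.61 to 0.27) with C18:0, C18:1 and C16:0 CoA.

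FAD7 (chr3:3499801-3502452), which makes trienoic fatty acids in the plastid, was at 92.8, 130 and 109 CPM with C18:0 CoA. It was at 73.8, 105 and 114 CPM with C18:1 CoA and at 92.7, 135 and 98.7 CPM with C16:0 CoA, against 122, 92.5 and 92.7 CPM in the control. The highest and the lowest of these values, 135 and 73.8 CPM, both came from shallow libraries. Its log2 fold changes were 0.08 (-0.38 to 0.55), -0.03 (-0.49 to 0.44) and 0.06 (-0.42 to 0.53) with C18:0, C18:1 and C16:0 CoA. Without the 3 shallow libraries they were -0.04, 0.08 and -0.11, each of the opposite sign and with an interval that includes 0.

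FAD8 (chr5:1664085-1666531) had the widest spread of the tested members relative to its level, and the largest log2 fold changes against the control in size. With C18:0 CoA it was at 10.8, 8.77 and 12.9 CPM (47, 5 and 32 reads). With C18:1 CoA it was at 8.85, 20.4 and 17.3 CPM (3, 66 and 74 reads), and with C16:0 CoA at 15.8, 3.55 and 9.02 CPM (35, 2 and 16 reads). The control libraries held 16.0, 16.6 and 14.7 CPM (101, 82 and 19 reads) and lay close together. The 3 C18:0 CoA libraries all lay below the control, whereas the C18:1 CoA and C16:0 CoA groups overlapped it.

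The log2 fold change of FAD8 with C18:0 CoA was -0.50 (-1.29 to 0.29), unadjusted p = 0.203 by edgeR's quasi-likelihood test across all genes. Of all 17036 genes tested, 6.47% likewise lay below the control in all 3 C18:0 CoA libraries. With C16:0 CoA the log2 fold change of FAD8 was -0.56 (-1.38 to 0.26) and with C18:1 CoA 0.12 (-0.64 to 0.89). The 3 lowest counts, of 2, 3 and 5 reads, came from the 3 shallow libraries, and without these the values were -0.44 (-1.06 to 0.17) with C18:0 CoA, -0.34 (-0.99 to 0.31) with C16:0 CoA and 0.23 (-0.34 to 0.81) with C18:1 CoA. Without C16:0 CoA replicate 1, the highest of its group, the C16:0 CoA value was -1.13 (-2.14 to -0.12), with an unadjusted p of 0.0300 and an adjusted p of 0.614 by edgeR. The interval over all libraries allows a decrease of FAD8 with C18:0 CoA to 0.408 of the control or an increase to 1.23 times the control. The summed level of 4 seed storage marker genes was 6.20 to 49.3 CPM with C18:0 CoA and 0.634 to 5.41 CPM in the control. Of these genes 2 were tested and 0 passed the adjusted threshold. Both had an unadjusted p under 0.05 by edgeR, as 1.88% of all genes did. The part of the seed storage transcripts in the FAD8 value was not tested.

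Like FAD3 and FAD8, FAD5 (chr3:5359009-5361185) was lowest on average with C16:0 CoA. It was at 61.2, 44.4 and 52.5 CPM with C16:0 CoA, below all control libraries, which held 63.9, 74.2 and 74.9 CPM. It was at 65.5, 49.1 and 61.8 CPM with C18:0 CoA and at 76.7, 62.0 and 80.6 CPM with C18:1 CoA, and both groups overlapped the control. The log2 fold change with C16:0 CoA was -0.40 (-0.84 to 0.05), unadjusted p = 0.0764 by edgeR, and 5.96% of all tested genes lay below the control in all 3 C16:0 CoA libraries. Without the 3 shallow libraries it was -0.31 (-0.68 to 0.06), and with the index as a covariate -0.66 (-1.46 to 0.15). The index term of that fit rests on 1 library, C18:1 CoA replicate 3, set against replicates 1 and 2 of its group. All 6 photosynthesis markers had positive log2 fold changes with C16:0 CoA (median 0.23) and all 6 root markers negative ones (median -0.52), and their part in the FAD5 value was not tested. With C18:0 CoA and C18:1 CoA the log2 fold changes of FAD5 were -0.24 (-0.67 to 0.20) and 0.04 (-0.40 to 0.47).

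FAD4 (chr4:13571921-13573070), a gene with a single exon, was near the limit of detection. With C18:0 CoA it had 10, 0 and 6 reads (2.30, 0 and 2.42 CPM). With C18:1 CoA it had 1, 2 and 11 reads (2.95, 0.617 and 2.58 CPM), and with C16:0 CoA 11, 0 and 7 reads (4.95, 0 and 3.95 CPM). The control had 16, 10 and 2 reads (2.54, 2.03 and 1.54 CPM). The libraries with 0 reads were C18:0 CoA replicate 2 and C16:0 CoA replicate 2, in which a count of 0 allows up to 5.26 and 5.33 CPM, above the highest level measured in any library. FAD4 did not pass the filter on low counts and is not among the tested members. Fitted without that filter, its log2 fold changes were -0.10 (-1.83 to 1.63) with C18:0 CoA, -0.26 (-2.06 to 1.52) with C18:1 CoA and 0.71 (-0.96 to 2.41) with C16:0 CoA. Over the 9 deeper libraries alone FAD4 passed the filter, and the C16:0 CoA value was 1.04 (-0.36 to 2.45), with an unadjusted p of 0.136 and an adjusted p of 0.897 by edgeR. No difference of FAD4 was detectable at this depth.

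Against the control, none of the 6 tested members passed the threshold of 0.05 on the adjusted p of edgeR with any acyl-CoA, and 0% of all 17036 genes passed it in each of these comparisons. Unadjusted, 0 of 6 members had p under 0.05 in each of the 3 comparisons, where 1.88% (C18:0 CoA), 1.99% (C18:1 CoA) and 4.03% (C16:0 CoA) of all genes did. DESeq2 called 0, 2 and 0 genes in the 3 comparisons, none of them a member. With C18:0 CoA 5 of the 6 log2 fold changes were negative, with a median of -0.16 (0.00 over all genes). With C16:0 CoA 5 of 6 were negative as well, with a median of -0.16 (0.00 over all genes), and with C18:1 CoA 2 of 6 were, with a median of 0.05 (0.00 over all genes). The 3 comparisons share the control libraries and are not independent. Between pairs of acyl-CoAs, treated below, DESeq2 called 1 gene in C18:1 CoA against C16:0 CoA and 0 in the other pairs, and among the 4 groups 2 genes, none of them a member.

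Averaged over the 3 acyl-CoAs, the change against the control lay between -0.31 for FAD8 (-0.93 to 0.31) and 0.04 for FAD7 (-0.34 to 0.42). Here too 0 of 6 members passed the test, against 0% of all genes, and 0 had an unadjusted p under 0.05, against 2.49% of all genes by edgeR. For FAD2 the 95% interval of this mean change ran from 0.790 to 1.21 times the control and for FAD3 from 0.779 to 1.25 times. For FAD8 it ran from 0.523 to 1.24 times, and without the 3 shallow libraries the FAD8 change was -0.18 (-0.65 to 0.28). A test for any difference among the 4 groups gave unadjusted p = 0.184 for FAD5 and 0.234 for FAD8 by edgeR, and 0.639 to 0.960 for the other 4 tested members (0 of 6 members and 0% of all genes past the adjusted threshold, 1.74% of all genes at an unadjusted p under 0.05).

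**Figure D3:**
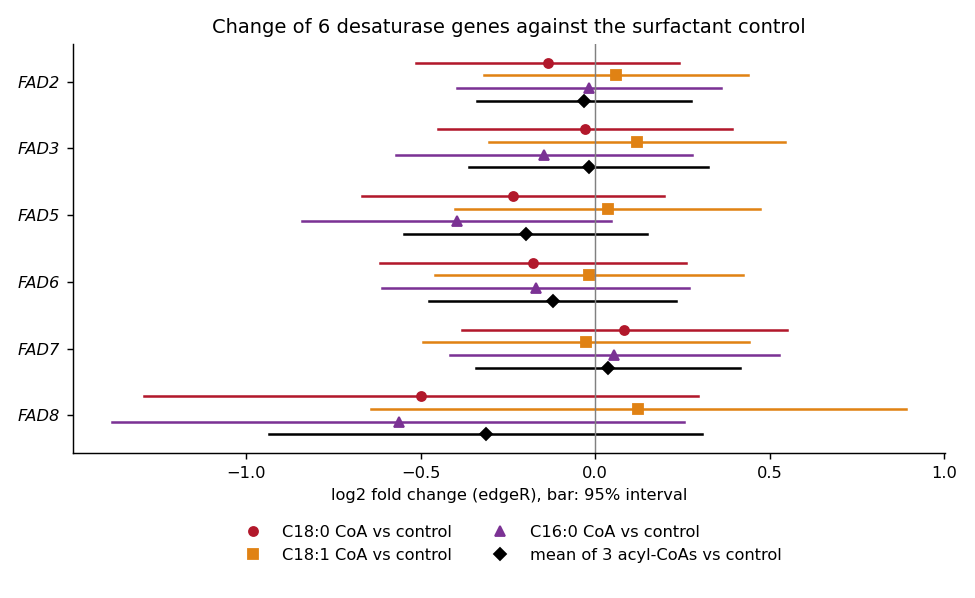
Log2 fold change against the control of the 6 tested desaturase genes, with C18:0 CoA, C18:1 CoA, C16:0 CoA and the mean of the 3 acyl-CoAs. Symbols are the edgeR estimates and lines their 95% intervals. All lines cross 0, and the lines of FAD8 (-1.38 to 0.89 at their widest) are longer than those of the other genes.

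The acyl-CoAs were also compared with each other at their common dose and time, in 3 pairs. C18:1 CoA and C18:0 CoA differ by a double bond. FAD2 was higher in all 3 C18:1 CoA libraries (505 to 537 CPM) than in all 3 C18:0 CoA libraries (424 to 478 CPM), a log2 difference of 0.20 (-0.18 to 0.58), unadjusted p = 0.294 by edgeR, and of 0.13 (-0.20 to 0.45) without the 3 shallow libraries. Of all tested genes, 4.82% lay apart in this direction. FAD8 averaged 15.5 ± 5.97 CPM with C18:1 CoA and 10.8 ± 2.08 CPM with C18:0 CoA (SD, n = 3 each), a log2 difference of 0.62 (-0.20 to 1.44), and its groups overlapped. Without the 3 shallow libraries that difference was 0.67 (0.02 to 1.33), with an unadjusted p of 0.0445 and an adjusted p of 0.757 by edgeR. Of the 6 tested members 5 had a positive difference, 0 passed the test (0% of all genes did) and 0 had an unadjusted p under 0.05 (2.64% of all genes did) by edgeR.

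C18:1 CoA and C16:0 CoA differ in chain length and in the double bond. FAD5 was at 62.0 to 80.6 CPM with C18:1 CoA and at 44.4 to 61.2 CPM with C16:0 CoA, so that the groups did not overlap, as was the case for 3.81% of all genes in this direction. Its log2 difference was 0.43 (-0.02 to 0.89), unadjusted p = 0.0625 by edgeR, and 0.32 (-0.08 to 0.72) without the 3 shallow libraries. FAD8 differed by 0.68 (-0.16 to 1.53), by 0.57 (-0.11 to 1.26) without the 3 shallow libraries and by 1.25 (0.22 to 2.28, adjusted p = 0.781 by edgeR) without C16:0 CoA replicate 1. FAD3 differed by 0.27 (-0.16 to 0.70). None of the 6 members passed the test (0% of all genes did), and 0 had an unadjusted p under 0.05 by edgeR (2.84% of all genes did).

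C18:0 CoA and C16:0 CoA, both saturated, differ in chain length. The log2 differences of the 6 members lay between -0.12 for FAD2 (-0.50 to 0.26) and 0.16 for FAD5 (-0.29 to 0.62). That of FAD6 was -0.01 (-0.45 to 0.44) and that of FAD8 0.06 (-0.81 to 0.94), which was 0.63 (-0.42 to 1.68) without C16:0 CoA replicate 1. None passed the test (0% of all genes did), and 0 had an unadjusted p under 0.05 by edgeR (2.11% of all genes did). The interval of FAD8 still allows a difference from 0.571-fold to 1.91-fold.

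Ratios between members within a library do not depend on its depth scaling. FAD8 relative to FAD7, per length, was -3.02, -3.69 and -2.99 on the log2 scale in the C18:0 CoA libraries. With C18:1 CoA the ratio was -2.80, -2.28 and -2.64, and with C16:0 CoA -2.47, -4.87 and -3.34. The control libraries held -2.86, -2.40 and -2.56. All 3 C18:0 CoA values lay below all control values and below all C18:1 CoA values. The mean difference was -0.63 against the control and that of C18:1 CoA over C18:0 CoA was 0.66, each with an exact two-sided permutation p of 0.1, the smallest that 3 libraries against 3 allow (adjusted p = 0.7 over the 21 ratio comparisons). Without the 3 shallow libraries the C18:0 CoA difference from the control was -0.40. The C16:0 CoA difference was -0.96 over all libraries and -0.30 without the shallow ones, of which replicate 2 (-4.87) rests on 2 FAD8 reads.

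FAD3 relative to FAD2, the balance of the consecutive steps in the endoplasmic reticulum, averaged -1.41 ± 0.26 with C18:0 CoA, -1.46 ± 0.15 with C18:1 CoA, -1.67 ± 0.10 with C16:0 CoA and -1.52 ± 0.27 in the control (log2, SD, n = 3 each). The C18:1 CoA libraries lay above the C16:0 CoA libraries by 0.21 on average, with the nearest libraries 0.0044 apart (exact permutation p = 0.1). FAD7 and FAD8 together relative to FAD6 averaged -0.27 ± 0.34 with C18:0 CoA, -0.54 ± 0.46 with C18:1 CoA, -0.29 ± 0.51 with C16:0 CoA and -0.49 ± 0.03 in the control. The 3 control values of this ratio lay between -0.52 and -0.47, inside the range of every treated group. Without the 3 shallow libraries the differences of this ratio from the control were 0.03, 0.17 and -0.10 with C18:0, C18:1 and C16:0 CoA.

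**Figure D4:**
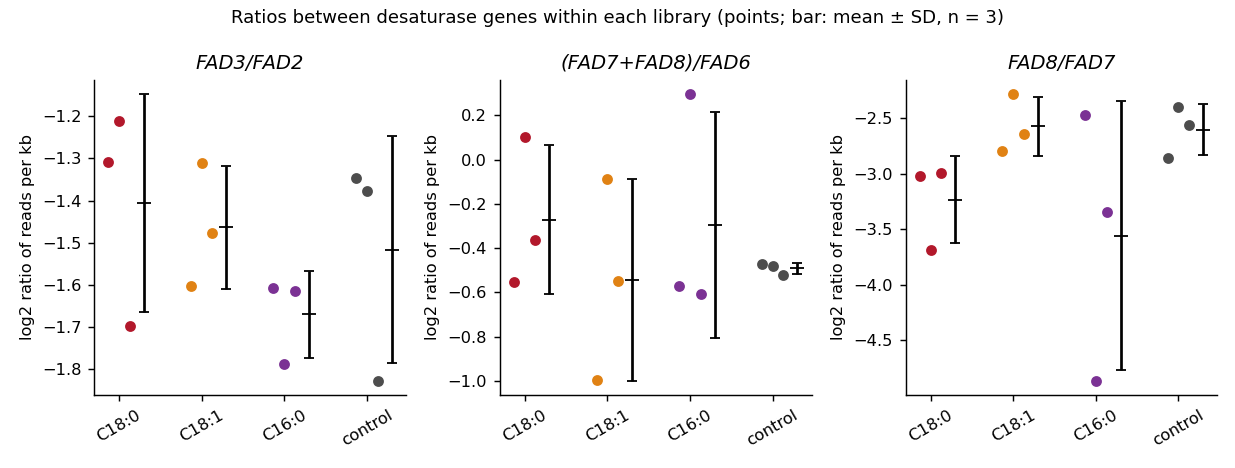
Log2 ratios of reads per kilobase between desaturase genes in each library, by group from C18:0 CoA on the left to control on the right. Points are libraries and bars the mean ± SD (n = 3). FAD8/FAD7 lies lower in the 3 C18:0 CoA libraries (-3.69 to -2.99) than in the control (-2.86 to -2.40).

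The authors' deposited table holds their own test on proportions of reads, Baggerley's test with FDR correction. In the authors' deposited table FAD2 with C18:1 CoA against the control had a corrected p of 0.0192 and a weighted difference of 36.3 CPM. In the authors' deposited table every other value of the 7 genes, over 6 comparisons, had a corrected p of 0.241 or higher, the lowest being FAD8 with C18:0 CoA. The authors' deposited table listed 922 of 28642 genes under 0.05 for C18:1 CoA against the control and 1045 and 831 for C18:0 and C16:0 CoA. On the TMM-scaled totals used here, a different measure, the C18:1 CoA libraries (505 to 537 CPM) lay inside the control range (429 to 566 CPM) for FAD2.

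The genes around the desaturases were followed in 10 lists with 57 genes, of which 47 passed the filter on low counts. None of these 47 passed the test in any comparison. In the mean of the 3 acyl-CoAs against the control 25 log2 fold changes were positive and 22 negative, with a median of 0.02 (0.00 over all genes). Unadjusted, 2 of 47 had p under 0.05 by edgeR, both higher, where 2.49% of all genes did.

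Among the stearoyl-ACP desaturases, the soluble plastid enzymes that make oleate, 1 of 5 tested members had an unadjusted p under 0.05 in this mean. This was FTM1 (AT1G43800), at 234 ± 48.5 CPM with the acyl-CoAs (SD, n = 9) and 142 ± 29.7 CPM in the control (n = 3), a log2 fold change of 0.71 (0.30 to 1.11) with an adjusted p of 0.9997 by edgeR. Its log2 fold changes were 0.55 (0.07 to 1.03) with C18:0 CoA, 0.64 (0.16 to 1.12) with C18:1 CoA and 0.93 (0.45 to 1.41) with C16:0 CoA. The other 4 tested members of this family lay on either side of 0, and the list's median was 0.07. Among them AT3G02620 was at 6.42 ± 2.11 CPM with C18:1 CoA against 13.2 ± 2.73 CPM in the control. Its log2 fold change there was -1.20 (-2.16 to -0.25), with an unadjusted p of 0.0158 and an adjusted p of 0.9999 by edgeR. With C18:0 CoA and C16:0 CoA it was at -0.59 (-1.47 to 0.28) and -0.16 (-1.05 to 0.73). In the mean of the 3 acyl-CoAs all 6 root markers had negative log2 fold changes (median -0.49). Of these markers 3 had an unadjusted p under 0.05 by edgeR, where 2.49% of all genes did. Their part in the values of FTM1 and FD3 was not tested. Of 4 tested ADS family desaturases, relatives of FAD5, 3 were positive, and AT1G06360 stood at 7.38 ± 3.64 CPM against 12.6 ± 4.23 CPM (log2 -0.65, -1.41 to 0.11). The ADS gene ADS1 differed between C18:1 CoA (14.8 ± 3.40 CPM) and C16:0 CoA (31.9 ± 7.85 CPM) at an unadjusted p of 0.0222 (log2 -0.95, adjusted p = 0.9999 by edgeR). Both tested sphingolipid desaturases were positive, with SLD2 at 0.51 (-0.44 to 1.48).

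Of the electron donors, FD3, a ferredoxin of non-photosynthetic plastids, had the lowest p. It was at 289 ± 99.5 CPM with the acyl-CoAs (n = 9) and 178 ± 25.3 CPM in the control (n = 3), a log2 fold change of 0.68 (0.16 to 1.20), unadjusted p = 0.0135 and adjusted p = 0.9997 by edgeR. The other 4 tested plastid donors, ferredoxins and ferredoxin reductases, were negative, so that the list's median was -0.15. Of the 6 cytochrome b5 and cytochrome b5 reductase genes of the endoplasmic reticulum 5 were positive, with a median of 0.09 and CB5-C at 0.28 (-0.21 to 0.77). CB5-D was at 132 ± 3.04 CPM with C18:1 CoA and 176 ± 8.58 CPM with C18:0 CoA (log2 -0.42, unadjusted p = 0.0379, adjusted p = 0.9998 by edgeR). PRXQ, the peroxiredoxin on which FAD4 depends, was at 90.8 ± 20.7 CPM against 98.0 ± 30.4 CPM (log2 -0.16, -0.60 to 0.28).

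Genes that supply or use the desaturases' lipids had no calls either. The 5 genes of phosphatidylcholine supply had a median of -0.0033, with AAPT1 at 0.16 (-0.19 to 0.51). The 8 tested genes of plastid lipid import and galactolipid synthesis had a median of -0.08, with MGD2 at 0.53 (-0.61 to 1.67), and the 5 genes of plastid glycerolipid assembly one of 0.10, with ATS1 at -0.27 (-0.79 to 0.24). The 5 tested enzymes that lead from trienoic fatty acids to jasmonate had a median of -0.21. Under C16:0 CoA the negative ones numbered 3 and the positive ones 2, AOS at 0.06 (-0.61 to 0.72) and AOC1 at 0.24 (-0.86 to 1.33). LOX2, a plastid lipoxygenase, was at 8.00 ± 6.93 CPM with C16:0 CoA against 21.7 ± 6.43 CPM in the control (log2 -1.18, unadjusted p = 0.0278, adjusted p = 0.988 by edgeR). AOC2, an allene oxide cyclase with close paralogs, was at 26.7 ± 4.57 CPM with C16:0 CoA against 39.5 ± 8.70 CPM (log2 -0.64, unadjusted p = 0.0314, adjusted p = 0.988). Over all 47 genes 5 had an unadjusted p under 0.05 with C16:0 CoA by edgeR, 2 higher and 3 lower, where 4.03% of all genes did. AOS, the allene oxide synthase, averaged 23.5 CPM with C18:1 CoA and 36.8 CPM in the control (log2 -0.71, -1.39 to -0.04, unadjusted p = 0.0393, adjusted p = 0.9999 by edgeR).

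**Figure D5:**
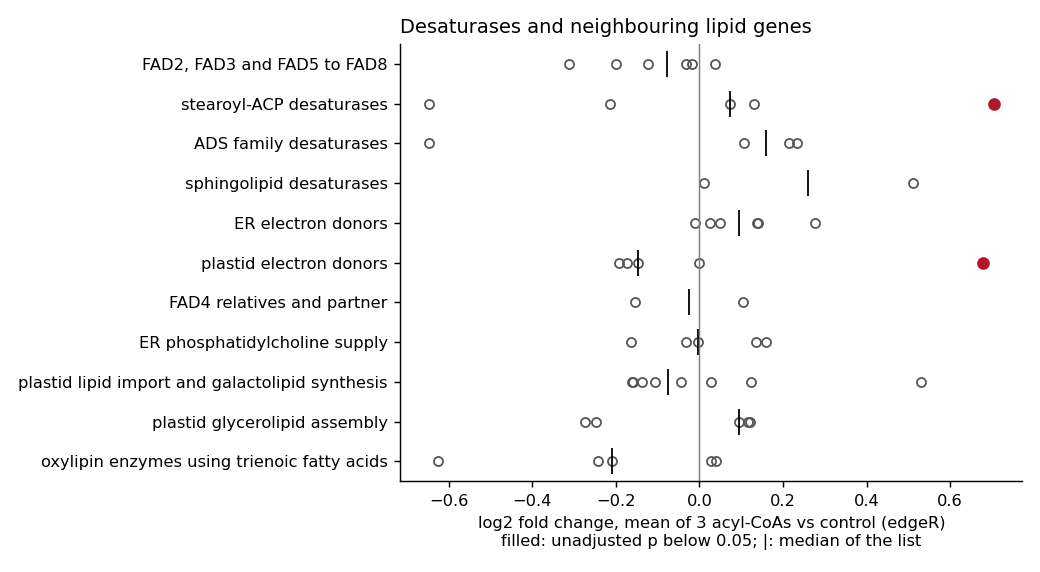
Log2 fold change of the mean of the 3 acyl-CoAs against the control (edgeR) for the tested members of each list, with the 6 tested desaturases in the top row. Circles are genes, filled where the unadjusted p was under 0.05, and vertical ticks are medians. The filled circles are FTM1 (0.71) and FD3 (0.68), and the desaturases lie between -0.31 and 0.04.

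Levels of single members were compared across the 12 libraries with the 10165 genes that averaged at least 20 CPM, as a description of libraries that share groups and depth. FAD2 was most like iqd32 (Pearson r = 0.92) and AT5G05100 (0.87). FAD3 was most like EDA35 (0.92) and TPC1 (0.92), FAD5 like DG1 (0.92) and AT1G33810 (0.89), and FAD6 like AAE15 (0.89) and NPH4 (0.89). FAD7 was most like AT3G47590 (0.92) and AT5G10560 (0.90). Over the 9 deeper libraries these values lay between 0.71 and 0.88. By rank (Spearman, 12 libraries) EDA35 stood at 0.73, TPC1 at 0.66 and NPH4 at 0.75, and the others at 0.85 to 0.94. These genes were picked as the highest of all compared, so high values follow in part from the choice. Among the 5 members above 20 CPM, r ranged from -0.63 for FAD5 and FAD7 to 0.69 for FAD5 and FAD6, and over the 9 deeper libraries these pairs stood at 0.02 and 0.23, so that these values rest on the 3 shallow libraries. Over the 9 deeper libraries the values ran from -0.21 for FAD2 and FAD5 to 0.60 for FAD6 and FAD7, a pair that stood at -0.35 over all 12.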

How the data were processed

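Paired-end poly(A) RNA-seq libraries of whole seedlings were analysed from the authors' deposited count table. It gives exon, intron, junction and whole-gene read counts per gene and library, per the file headers. The build was TAIR10, per the submitters' processing notes. No aligner, annotation release or strand setting is named in the sources used here. Baggerley's test results (p-values with FDR correction and weighted differences of proportions) were deposited beside the counts, per the file headers. Coordinates are those of the deposited table, counted from 1. Sequences come from RefSeq (TAIR10.1).

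Exon counts of all 12 libraries were TMM-scaled and fitted together by edgeR's quasi-likelihood method (4.0.16, R 4.3.3) with 1 coefficient for each group. Of the listed genes 17036 passed filterByExpr. Two-sided p-values were Benjamini-Hochberg adjusted over these, with a threshold of 0.05. CPM uses TMM-scaled totals and RPKM divides by the deposited exon length. Ratios add 0.5 reads and were compared by exact permutation. Intron shares have 95% Wilson intervals, which cover counting error only. One line that named no gene held 0 reads and was left out.

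Gene symbols come from a RefSeq table that matched 28009 of the 28642 identifiers. Named genes were the 7 members, the gene of each list with the smallest p in the mean of the acyl-CoAs, and for each member above 20 CPM the 2 genes most correlated with it. AT3G02620, ADS1, CB5-D, AOC1, AOC2 and AOS were chosen after their values were seen, as were the values of LOX2 with C16:0 CoA. The members and lists were chosen with earlier results of these data known. The labels describe separate pools of plants as replicates, and p-values measure the spread between those pools. Alternatives were the scaling, the tool (DESeq2 1.42.0), the filter, whole-gene counts, a length trend, the libraries fitted, index, lane and a replicate block.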

Additional observations from a re-analysis of the deposited data

Results flagged for a closer look

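Intron reads are not in the exon counts compared in the report and enter only the alternative with whole-gene counts. Their share, pooled over the libraries of a group, was highest for FAD8 with C18:0 CoA. Of the reads within the gene 12.5% (12 of 96, Wilson 95% interval 7.30 to 20.6) were intronic in the C18:0 CoA libraries, against 2.42% (5 of 207, 1.04 to 5.53) in the control. By library these were 5 of 52, 0 of 5 and 7 of 39 reads with C18:0 CoA, against 4 of 105, 1 of 83 and 0 of 19 reads in the control. The share was 4.03% (6 of 149) with C18:1 CoA and 3.64% (2 of 55) with C16:0 CoA. By library these were 0 of 3, 5 of 71 and 1 of 75 reads with C18:1 CoA and 1 of 36, 0 of 2 and 1 of 17 with C16:0 CoA. With 0 of 5 reads in replicate 2, the C18:0 CoA libraries overlapped those of every other group. The FAD8 share with C18:0 CoA was chosen among 21 combinations of member and acyl-CoA, and the spread between libraries was not tested. Over all genes the intron share was 1.76% to 2.21% in the C18:0 CoA libraries and 1.75% to 2.29% in the control libraries.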

How the results depend on the processing

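Under the alternatives run, 0 of the tested members passed the adjusted threshold, and the smallest adjusted p was 0.614. A direction was counted as reversed only where a test passed or a 95% interval excluded 0. By that rule 0 of 936 alternative log2 fold changes of members reversed. Only 6 of these had an interval that excluded 0, so the rule could seldom apply. Ratio differences have no interval and were not judged by it. Of 936 alternative log2 fold changes of members 78 had the opposite sign of the value reported, 13 of them without the 3 shallow libraries. All 78 belong to changes of at most 0.16 in size, and 0 had an interval that excluded 0. Of 216 alternative ratio differences 26 changed sign. Unadjusted p under 0.05 occurred in 6 alternative values: FAD8 with C16:0 CoA against the control and FAD8 in C18:1 CoA against C16:0 CoA, both without C16:0 CoA replicate 1, FAD8 in C18:1 CoA against C18:0 CoA without the 3 shallow libraries, and FAD5 in C18:1 CoA against C16:0 CoA under 3 settings.

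With a replicate block, 0 members passed, no log2 fold change moved by more than 0.054, and FAD8 with C18:0 CoA was at -0.52. The labels give replicate numbers but no pairing, and 5 of 18 same-numbered pairs correlated above 0.1 (-0.23 to 0.23). Differently numbered pairs ran from -0.25 to 0.21. These correlations cannot decide whether the numbers pair the samples, since library depth also varies between them. Over all genes the calls by edgeR or DESeq2 numbered 0 to 5 per comparison under every alternative, the 5 being C18:1 CoA against the control without the 3 shallow libraries. With the index as a covariate FAD5 with C16:0 CoA was at -0.66 (-1.46 to 0.15), where the index term rests on C18:1 CoA replicate 3. Comparisons with C16:0 CoA could not be made within the control's index, and the lane term left 1 residual degree of freedom. The fit on 2 groups does not apply to the mean of the acyl-CoAs or to the test among 4 groups. FAD4 stood between -0.97 and 0.71 (log2) over the 7 comparisons without the filter and between -1.40 and 1.04 without the 3 shallow libraries, with 0 calls. Depth limits FAD4 and FAD8 most.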
